A study of Mus musculus with 6 samples.

Results

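The genes described here are 9 genes of B cell identity, B cell surface proteins and B cell receptor signalling: Cd79a, Cd79b, Ms4a1, Cd22, Cr2, Fcer2a, Blk, Bank1 and Pax5. They were chosen by name, and a probe was assigned to one of them when the RefSeq accession on the array mapped to its symbol. This gave 12 of the 55681 non-control probes, and 9 of the 20018 genes that could be named. Cr2, Bank1 and Pax5 each had a pair of probes and the other 6 genes had 1 probe each.

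RNA came from red pulp macrophages, the splenic macrophages that clear aged red blood cells, isolated with a flow cytometer from the spleens of C57BL/6 mice aged 8 to 9 weeks. The 3 Bach2 knockout mice were set against 3 wild-type mice, each mouse giving 1 single-colour Agilent array. All mice were male except wild-type mouse 3. The labels do not describe the knockout allele, the cells in which it was deleted or the markers of the sort. Bach2 is a transcription factor that pairs with small Maf proteins and binds Maf recognition elements, and the series asks about its role in the handling of heme and iron by these macrophages.

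The B cell receptor is a membrane immunoglobulin held with a Cd79a and Cd79b heterodimer, whose cytoplasmic tails recruit Src-family kinases and Syk when antigen binds. Coreceptors such as Cr2 lower the threshold for this signal, inhibitory receptors such as Cd22 raise it, and Pax5 keeps the B cell programme in place, with Cd79a among its targets. The spleen is rich in B cells, and in B cells Bach2 restrains plasma cell differentiation, whereas macrophages are not a known main source of these transcripts.

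Values are log2 levels, the log2 processed signal of a probe minus the log2 of its array's 75th percentile signal. A level of 0 is therefore that percentile, and levels of different probes cannot be set against each other. The 75th percentile was 1553, 1171 and 3172 intensity units in knockout mice 1 to 3, and 1734, 1693 and 865.2 in wild-type mice 1 to 3. The share of spots well above background was 38.9% to 46.2% on knockout arrays and 37.5% to 51.5% on wild-type arrays. Of 11 named red pulp macrophage markers, 10 were well above background on all 6 arrays, and their mean level was 5.43 to 5.69 in knockout and 5.59 to 6.72 in wild-type mice. Of these 11 markers, 10 were highest in wild-type mouse 3. The brighter Bach2 probe stood at -2.42, -3.90 and -1.41 in knockout mice and at -1.09, -0.21 and -1.53 in wild-type mice, a difference of -1.63 ± 0.76 (SE; limma adjusted p = 1). The Bach2 groups overlapped, and since no source places the probe relative to the deletion, it is no check of the labels.

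The promoters of Cr2 and Fcer2a are shown because these genes had the largest differences of the 9 in opposite directions. In addition, 2 of the 3 Fcer2a windows match TGANTCA, the core of a Maf recognition element with any base allowed at its centre. The third Fcer2a window and the Cr2 window do not match it. The promoters are windows from 250 bases before to 50 bases after a RefSeq start site (mouse build GRCm38.p6), all on the minus strand, 5′ to 3′, with motif matches in capitals. The Cr2 window is chr1:195176670-195176969 and the Fcer2a windows printed are chr8:3694125-3694424 for start site A and chr8:3690812-3691111 for start site B. The third Fcer2a window, chr8:3690341-3690640, held no match and is not printed.
Cr2: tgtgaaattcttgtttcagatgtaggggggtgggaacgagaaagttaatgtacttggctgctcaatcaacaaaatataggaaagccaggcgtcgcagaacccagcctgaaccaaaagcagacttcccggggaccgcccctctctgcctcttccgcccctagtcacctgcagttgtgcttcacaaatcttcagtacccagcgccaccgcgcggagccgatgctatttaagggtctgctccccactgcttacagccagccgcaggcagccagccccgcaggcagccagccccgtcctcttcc
Fcer2a, start site A: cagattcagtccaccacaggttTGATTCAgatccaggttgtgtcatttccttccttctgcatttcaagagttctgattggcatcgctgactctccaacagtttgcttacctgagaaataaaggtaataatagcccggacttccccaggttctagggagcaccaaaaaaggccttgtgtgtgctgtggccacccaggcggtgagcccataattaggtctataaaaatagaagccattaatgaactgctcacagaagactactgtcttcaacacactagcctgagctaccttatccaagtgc
Fcer2a, start site B: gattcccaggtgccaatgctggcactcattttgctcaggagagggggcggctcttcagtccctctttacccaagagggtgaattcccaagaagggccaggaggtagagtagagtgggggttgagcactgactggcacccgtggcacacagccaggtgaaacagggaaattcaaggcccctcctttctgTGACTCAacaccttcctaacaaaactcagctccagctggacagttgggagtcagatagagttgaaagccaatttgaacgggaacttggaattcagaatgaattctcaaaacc
RefSeq windows were at hand for 6 of the 9 genes, 8 windows in all, and none was at hand for Cd79b, Ms4a1 and Blk. Both strands were searched for 3 motifs, which do not overlap each other in these windows. TGANTCA, the core shared by AP-1 sites and Maf recognition elements with any base allowed at its centre, was in 2 of the 8 windows. It was in 7.81% of all 32851 windows of the same length. Its matches lay in the 2 Fcer2a windows printed. That of start site A was TGATTCA, with its first base at -228. That of start site B was TGACTCA, with its first base at -62. The octamer ATGCAAAT and the PU.1 motif GAGGAAGT were in 0 of the 8 windows, against 1.74% and 3.2% of all windows. These matches describe letters and show no binding.

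Most of the 9 genes gave a clear signal in the sorted cells. Of the 12 probes, 8 were well above background on all 6 arrays and 11 on at least 3, and by gene 6 of 9 had their brighter probe well above background on every array (Cd79b, Ms4a1, Cd22, Cr2, Fcer2a and Bank1). In the fit over all 55681 probes, 0 of the 9 genes passed an adjusted p of 0.05 with limma, against 0 probes of the whole array (0.0%), and 0 of the 9 had an unadjusted p under 0.05, against 492 probes (0.884%). Of the 9 genes, 5 had a difference above 0 and 4 below 0, where 53.0% of all named genes lay above 0 and 47.0% below, and 41.1% above and 58.9% below among named genes well above background on at least 3 arrays. Their median log2 difference, knockout minus wild type, was 0.02, beside 0.04 over all named genes. For 7 of the 9 genes the difference was smaller than its own standard error. Cr2 was the gene of the 9 whose groups did not overlap, lower in each knockout mouse, where 1.75% of all named genes and 1.81% of those well above background on at least 3 arrays were apart in that direction. In the higher direction 0 of the 9 were apart, against 0.874% and 1.24% of these genes. By probe, 1 of 12 was apart and lower and 0 of 12 apart and higher, against 1.89% and 0.684% of all probes. In a bulk sample, fewer cells of a type and less RNA per cell cannot be told apart. The number of arrays, 3 in each genotype, limits the precision of every value, and a p that misses the threshold does not show that the genotypes are alike.

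**Figure D1:**
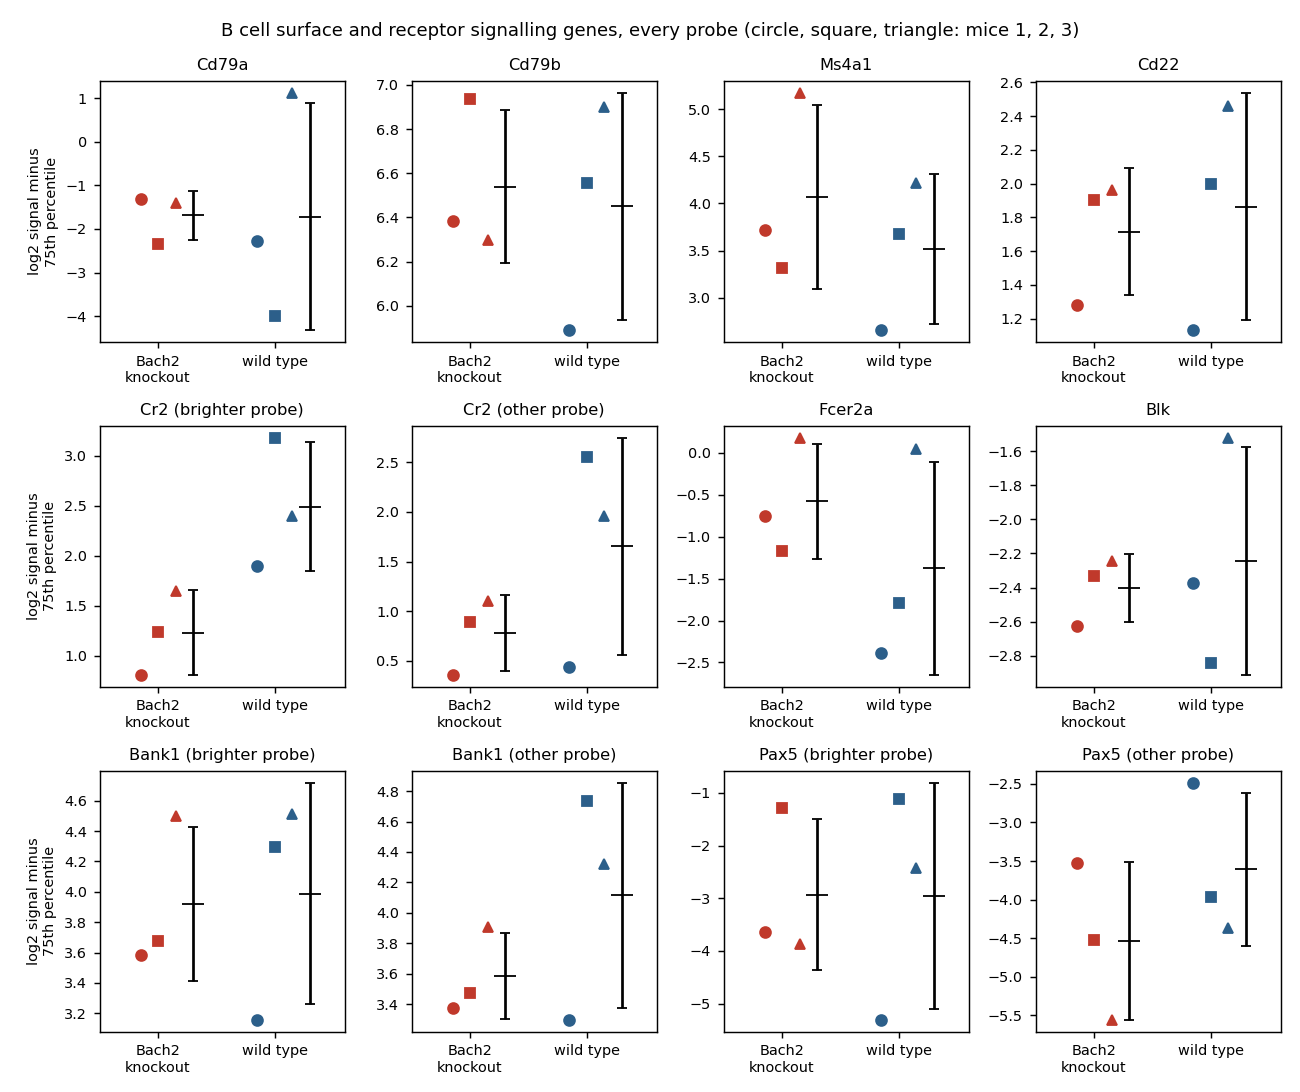
Log2 level of all 12 probes of the 9 genes in each mouse (y axis, log2 processed signal minus the array's 75th percentile). Knockout mice are to the left of wild-type mice, with the mean and SD of each genotype. On the brighter Cr2 probe the groups are apart, at 0.81 to 1.65 in knockout and 1.90 to 3.18 in wild-type mice. On the other Cr2 probe and on every probe of the other 8 genes they overlap.

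Of the receptor's signalling heterodimer, Cd79b lay close between mice and Cd79a spread widely among wild-type mice. Cd79b stood at 6.38, 6.93 and 6.30 in knockout mice, against 5.89, 6.56 and 6.90 in wild-type mice, well above background in all. Wild-type mice 2 and 3 lay among the knockout values and wild-type mouse 1 below them, and the difference was 0.09 ± 0.63 (SE) with a 95% interval of -1.28 to 1.46. Cd79a stood at -1.32, -2.34 and -1.41 in knockout mice, against -2.27, -4.00 and 1.12 in wild-type mice. Wild-type mouse 3 held the highest Cd79a level and wild-type mouse 2 the lowest, so that the wild-type range was 5.12 log2 units and the knockout range 1.02. The Cd79a difference was 0.03 ± 1.08 (SE), with an interval of -2.34 to 2.39, and without wild-type mouse 3 it was 1.44. Cd79a was well above background on 2 of 3 knockout and 3 of 3 wild-type arrays.

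Cr2, complement receptor 2 or CD21, binds complement fragments on antigen and acts with Cd81 in the B cell coreceptor. It is carried by mature B cells, at a high level by marginal zone B cells, and by follicular dendritic cells. The brighter Cr2 probe stood at 0.81, 1.24 and 1.65 in knockout mice, against 1.90, 3.18 and 2.40 in wild-type mice. All 3 knockout values lay below the lowest wild-type value, that of wild-type mouse 1. The means were 1.23 ± 0.42 in knockout and 2.49 ± 0.65 in wild-type mice (SD, n = 3 each), a difference of -1.26 ± 0.65 (SE) with an interval of -2.67 to 0.16, or 2.39-fold lower in knockout. This did not pass the test (limma, unadjusted p = 0.0763, adjusted p = 1). The 3 array columns, each with 1 mouse of each genotype, gave -1.09, -1.94 and -0.75.

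The other Cr2 probe ran the same way with overlap. It stood at 0.36, 0.89 and 1.10 in knockout mice, against 0.44, 2.56 and 1.96 in wild-type mice, a difference of -0.87 ± 0.71 (SE; limma unadjusted p = 0.245, adjusted p = 1). Wild-type mouse 1 lay among the knockout values on this probe, and the other wild-type mice lay above all of them. Cd81 had a difference of -0.55 with overlapping groups.

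Markers of the other cells that carry Cr2 were set beside it. Of 8 marginal zone B cell genes, 3 lay above 0 and 5 below, with a median difference of -0.21, and their mean level was 3.05 to 3.59 in knockout and 3.03 to 3.86 in wild-type mice. Of 7 follicular dendritic cell genes, 3 lay above 0 and 4 below, and the 5 of them well above background on at least 3 arrays had a mean level of -0.60 to 0.04 in knockout and -0.52 to 0.60 in wild-type mice. Sox9 and Lrat of that list were not well above background on any array, and Cxcl13 was so on 1 knockout and 2 wild-type arrays. Of the 8 and 7 genes, 0 were apart in either direction. Their part in the Cr2 difference was not tested.

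Among the surface proteins, Fcer2a and Ms4a1 had differences above 0 that did not pass the test. Fcer2a, the low-affinity IgE receptor CD23 of follicular B cells, stood at -0.75, -1.17 and 0.18 in knockout mice, against -2.39, -1.79 and 0.05 in wild-type mice. The levels of wild-type mice 1 and 2 were the lowest, while wild-type mouse 3 exceeded 2 of the 3 knockout mice. The difference was 0.80 ± 0.77 (SE) with an interval of -0.89 to 2.48, and its 3 array columns gave 1.64, 0.62 and 0.13 (limma unadjusted p = 0.321). Without wild-type mouse 1 it was 0.29.

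Ms4a1, which encodes CD20, a surface protein of B cells from the pre-B stage on, stood at 3.72, 3.31 and 5.17 in knockout mice, against 2.66, 3.68 and 4.22 in wild-type mice. Knockout mouse 3 was the highest and wild-type mouse 1 the lowest, and the others interleaved. The difference was 0.55 ± 0.73 (SE), with an interval of -1.04 to 2.15, and without knockout mouse 3 it was 0.0001. Cd22, a sialic acid-binding inhibitory receptor that recruits the phosphatase Ptpn6, stood at 1.28, 1.90 and 1.96 in knockout mice, against 1.13, 1.9996 and 2.46 in wild-type mice. Every knockout value lay within the wild-type range, and the difference was -0.15 ± 0.65 (SE), with an interval of -1.56 to 1.27.

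Bank1 and Blk act in the cytoplasm, and for both the genotypes overlapped. Bank1, a scaffold that links the receptor to Src-family kinases and calcium release, stood at 3.59, 3.67 and 4.50 in knockout mice, against 3.16, 4.29 and 4.51 in wild-type mice on its brighter probe. Wild-type mouse 1 was the lowest and wild-type mouse 3 the highest, with a difference of -0.07 ± 0.66 (SE). Its other probe stood at 3.38, 3.47 and 3.91 in knockout mice, against 3.30, 4.73 and 4.32 in wild-type mice, a difference of -0.53 ± 0.65 (SE), again with overlap. Blk, a Src-family kinase of the B lineage, stood at -2.62, -2.33 and -2.24 in knockout mice, against -2.37, -2.84 and -1.52 in wild-type mice. It was well above background on 1 of 3 knockout and 3 of 3 wild-type arrays, and its difference was -0.16 ± 0.64 (SE).

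Pax5, the transcription factor of B lineage commitment, was near background and its probes disagreed in sign. The brighter probe stood at -3.64, -1.28 and -3.88 in knockout mice, against -5.31, -1.12 and -2.43 in wild-type mice, and was well above background on 2 of 3 knockout and 1 of 3 wild-type arrays. Mouse 2 of each genotype was the highest of its group, and the difference was 0.02 ± 1.06 (SE), with an interval of -2.29 to 2.33. The other probe stood at -3.52, -4.53 and -5.56 in knockout mice, against -2.49, -3.97 and -4.37 in wild-type mice, a difference of -0.93 ± 0.76 (SE). It passed the background criterion on 0 of 3 knockout and 2 of 3 wild-type arrays, and no lower bound for a fold could be given, since that bound was under 1.

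**Figure D2:**
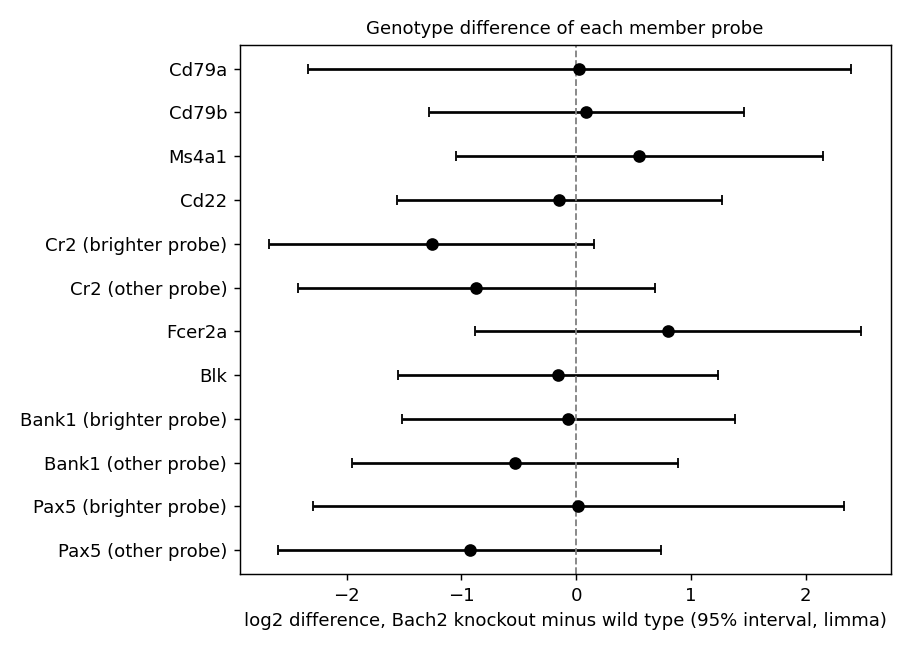
Log2 difference, knockout minus wild type, of all 12 probes of the 9 genes (points) with 95% intervals from the fit over all probes (bars). Every interval includes 0, and that of the brighter Cr2 probe runs from -2.67 to 0.16.

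The genes varied widely among the wild-type mice. For 8 of the 9 genes the wild-type range was wider than the knockout range. Wild-type mouse 3 held the highest level of 4 genes and wild-type mouse 2 that of 2, while knockout mouse 3 was highest for 2 and knockout mouse 2 for 1. Wild-type mouse 1 held the lowest level of 6 of the 9 genes. It was also lowest for 12 of 17 other B cell surface genes, but for 1 of 8 marginal zone B cell genes. Wild-type mouse 3 was highest for 5 of those 17 genes and 2 of those 8. Shares over all named genes are not given, so these counts are not read as particular to the 9 genes. When each gene was centred on its mean over the 6 arrays, the average of the 9 genes ran from -0.28 to 0.25 in knockout mice and from -0.84 to 0.86 in wild-type mice, the extremes being wild-type mice 1 and 3. Wild-type mouse 3, the only female, was also the array with the lowest 75th percentile and the highest macrophage markers. The mean level of 8 erythroid genes was 5.88, 2.89 and 3.34 in wild-type mice 1 to 3. In knockout mice 1 to 3 it was 5.66, 4.36 and 2.95. The part of sex, scaling, macrophage markers or erythroid genes in the levels of the 9 genes was not tested.

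**Figure D3:**
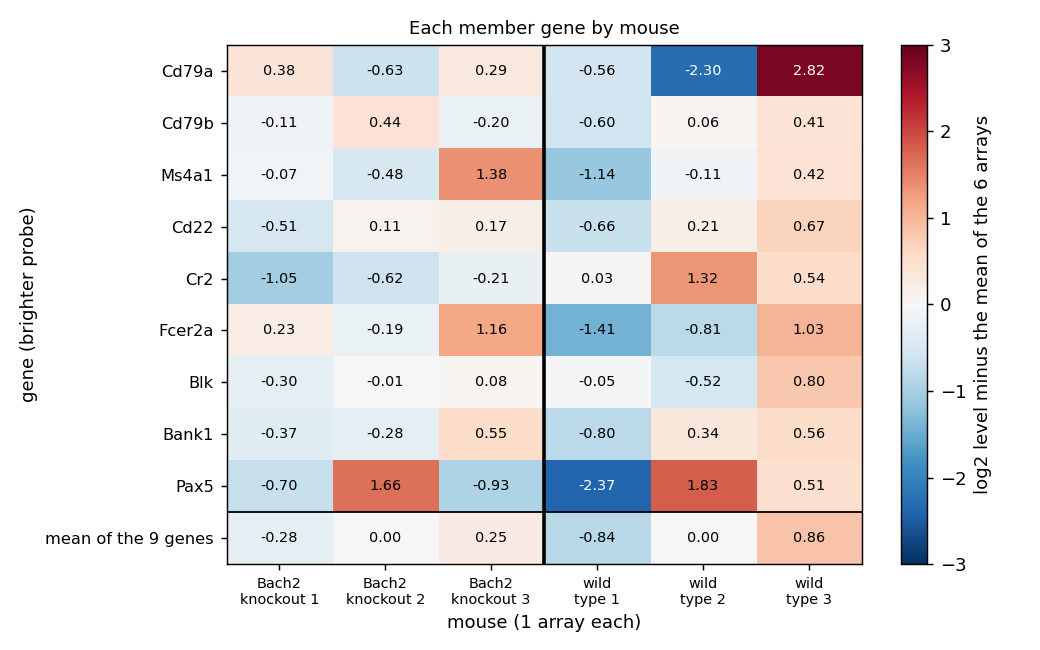
Log2 level of each of the 9 genes minus its mean over the 6 arrays (colour and printed value), knockout mice to the left of wild-type mice, with the mean of the 9 genes in the bottom row. Wild-type mouse 1 averages -0.84 and wild-type mouse 3 averages 0.86, outside the knockout mice at -0.28 to 0.25.

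Some of the genes followed each other over the 6 arrays and Cr2 had weaker correlations with the rest. Over the 36 pairs of genes the median Pearson correlation was 0.41, a description over 6 arrays that share their scaling. The closest pairs were Cd79a with Blk at 0.90, Ms4a1 with Fcer2a at 0.88, Cd22 with Bank1 at 0.88 and Cd79b with Pax5 at 0.85. The partners Cd79a and Cd79b had a correlation of 0.29. The 8 pairs with Cr2 had a median of 0.07 and ran from -0.22 to 0.50, whereas the other 28 pairs had a median of 0.47.

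These correlations include the difference between genotypes, so they give no separate ground for singling out Cr2. Cr2 was also expressed relative to the other genes of the same array, a measure added after the data had been seen. Its level minus the mean of the other 5 genes well above background on all arrays was -2.04, -1.69 and -1.97 in knockout mice, against -0.19, 0.23 and -1.23 in wild-type mice. The knockout mice lay within a narrow band below all wild-type mice, and the difference was -1.50. It was -1.26 without this reference, which holds Fcer2a and Ms4a1 with differences of 0.80 and 0.55. For the other Cr2 probe this relative level was -2.49, -2.04 and -2.52 in knockout mice, against -1.65, -0.39 and -1.67 in wild-type mice, a difference of -1.11 and again without overlap. Without the reference this probe overlapped, with wild-type mouse 1 at 0.44. Each of the 5 reference genes was lowest in that mouse, so subtracting them raised it relative to the others. The lack of overlap on this probe therefore depends on the reference. Relative levels have no meaning as levels between genes, and only their difference between genotypes is read here. On the same measure the relative differences of Ms4a1 and Fcer2a were 0.67 and 0.97 with overlapping groups, and the dimmer Bank1 probe was apart at -0.54 while its brighter probe overlapped at -0.07. Of 11745 other named genes set against the mean of all 6 genes, Cr2 included, 1.76% were apart and lower in knockout and 1.06% apart and higher. Cr2 was set against the other 5 only, so these shares belong to a somewhat different measure.

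**Figure D4:**
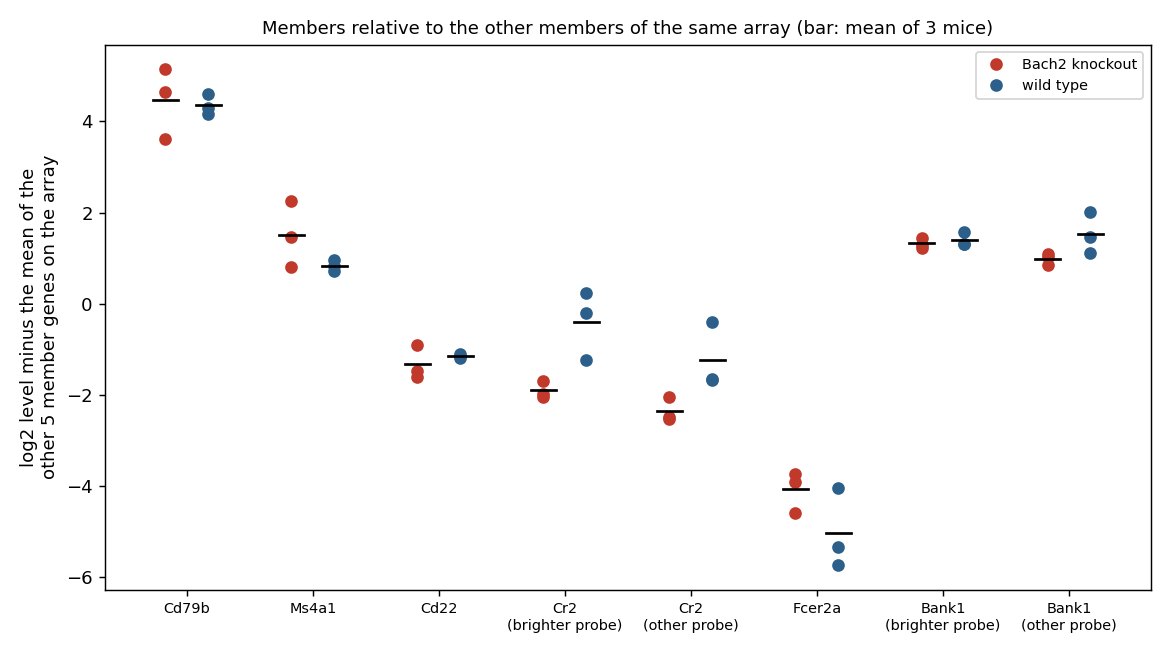
Log2 level minus the mean log2 level of the other 5 of the 6 genes well above background on all 6 arrays, by mouse (points), knockout mice to the left of wild-type mice. Both Cr2 probes are apart, the brighter at -2.04 to -1.69 in knockout and -1.23 to 0.23 in wild-type mice. The dimmer Bank1 probe is apart and lower in knockout too, while the brighter Bank1 probe overlaps.

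Other genes tied to the B cell programme were examined as lists, and their differences lay on both sides of 0. Which cells of the sort gave the signal of these genes was not tested, so the lists are no measure of B cells alone. Of 25 genes of positive receptor signalling, 11 lay above 0 and 14 below, 0 were apart in either direction and the median difference was -0.07. The kinase Syk (-0.37) and the adaptor Blnk (0.07) are examples, and Sos1, a Ras exchange factor, had a difference of 1.39 ± 0.89 (SE) but was well above background on 1 knockout and 0 wild-type arrays. Of 15 inhibitors of receptor signalling, 8 lay above 0 and 7 below, with a median of 0.05. Cd5 was the inhibitor whose groups were apart, at 1.07, 0.44 and 0.98 in knockout mice, against -0.05, -0.45 and -0.55 in wild-type mice, a difference of 1.18 ± 0.61 (SE; limma unadjusted p = 0.0776, adjusted p = 1).

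Cd5 is also a T cell gene, and the markers of T cells and NK cells were higher on average in each knockout mouse than in any wild-type mouse. Of 10 T cell genes, 9 lay above 0, 3 were apart and higher in knockout, and their mean level was 1.21 to 2.12 in knockout and 0.66 to 0.90 in wild-type mice. Of 7 NK cell genes, all 7 lay above 0 and 3 were apart and higher, with a mean level of 1.28 to 2.33 in knockout and -0.01 to 0.70 in wild-type mice. None of these genes passed an adjusted p of 0.05 with limma, and 2 in each list had an unadjusted p under 0.05. Among all named genes well above background on at least 3 arrays, 1.24% were apart and higher. An unadjusted p under 0.05 (limma) and a higher level in knockout were found for 0.468% of them. The part of T cells and NK cells in the Cd5 difference was not tested.

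Of 17 other B cell surface genes, 5 lay above 0 and 12 below with a median of -0.10, and 0 were apart. Ccr6, a chemokine receptor of B cells, differed by -0.63 ± 0.69 (SE). Of the 14 B cell transcription factors, 7 lay on each side of 0, among them Ebf1 at 0.23 ± 0.73, the Oct coactivator Pou2af1 at 0.67 ± 0.67 and the Ikaros-family factor Ikzf3 at 0.77 ± 0.64 (SE). Of the 8 plasma cell genes, 5 lay above 0 and 3 below with a median of 0.14. Of 8 genes of B cell precursors, 3 lay above 0 and 5 below with a median of -0.46, but Igll1, Rag1 and Rag2 were not well above background on any array. Across these lists 0 genes passed an adjusted p of 0.05, and 0 had an unadjusted p under 0.05 (limma). Among lists of other cells a splenic sort could hold, the median difference was 1.09 for NK cells, 1.05 for 8 neutrophil genes, 0.45 for 8 erythroid genes, 0.05 for 7 conventional dendritic cell genes and -0.48 for 8 plasmacytoid dendritic cell genes. All 11 red pulp macrophage markers lay below 0, 1 of them apart. The 3 marginal zone macrophage genes also lay below 0, but Siglec1 differed by -0.02 ± 0.70 (SE). Cd209b was well above background on 1 knockout and 1 wild-type array. Marco was apart and lower, at 4.39 ± 0.51 in knockout and 5.99 ± 0.31 in wild-type mice (SD, n = 3 each). Its unadjusted p was 0.0257 (limma), and it did not pass an adjusted p of 0.05. Of the 8 plasmacytoid dendritic cell genes, 2 lay above 0 and 6 below, and Cox6a2 and Klk1 were apart and lower (limma, unadjusted p = 0.0318 and 0.0355, adjusted p = 1). The 7 of them well above background on at least 3 arrays had a mean level of 2.45 to 2.70 in knockout and 2.97 to 3.69 in wild-type mice. Among all named genes that bright, 1.81% were apart and lower, and 0.247% had an unadjusted p under 0.05 (limma) and were lower. The part of any of these cells in the levels of the 9 genes was not tested.

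**Figure D5:**
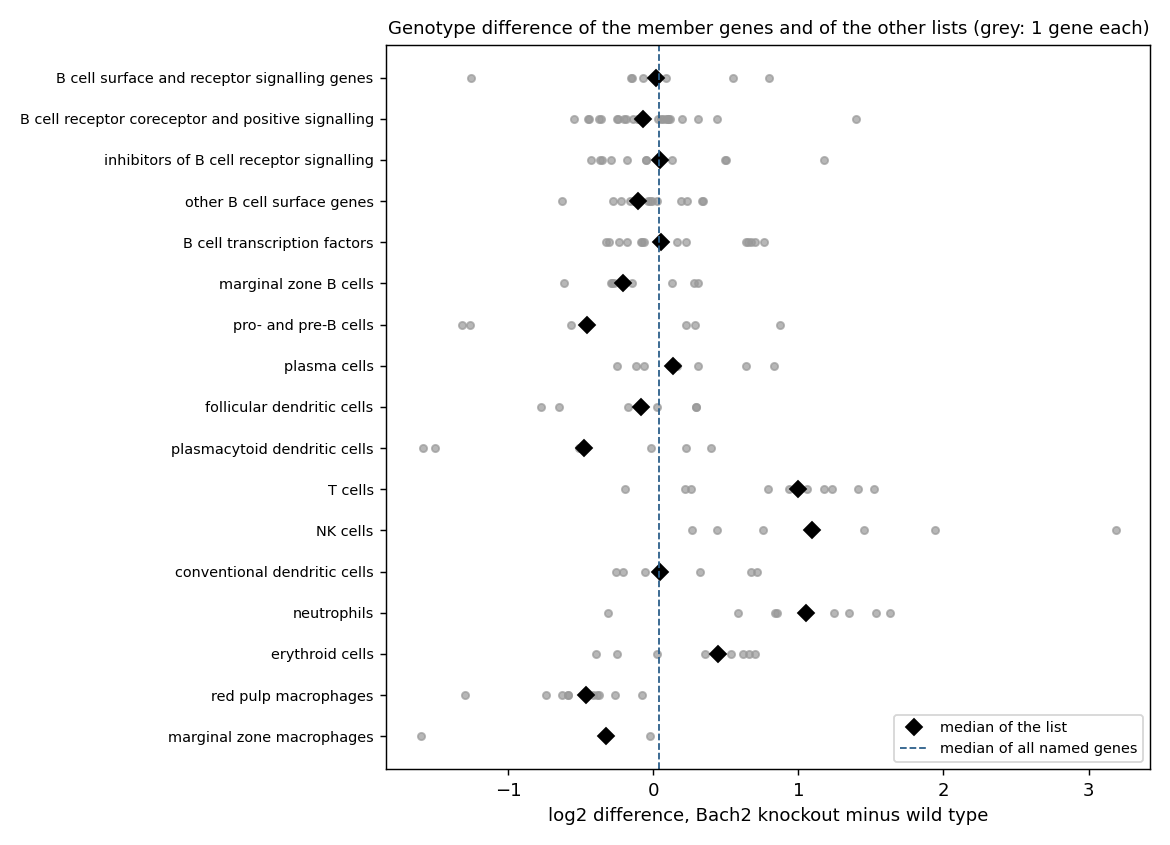
Log2 difference, knockout minus wild type, of every gene with a probe in each list (grey points), with the median of each list (black diamond) and of all named genes (dashed line). The B cell lists, those of precursors and plasma cells included, have medians from -0.46 to 0.14, the T cell list 0.996 and the red pulp macrophage list -0.46.

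The pattern of other genes over the 6 arrays was compared with the average of the 9 genes. Among 11742 named genes well above background on at least 3 arrays, the median correlation was 0.11 and 79 exceeded 0.9. The 10 closest were Il2rg, Slc49a4, Pcmtd1, Ass1, Atn1, Il10rb, Trp53i11, Psen2, Pla2g2d and Cd33, with correlations of 0.97 to 0.98, and 0 of them were in the B cell lists. The lists of positive receptor signalling, its inhibitors, other B cell surface genes and B cell transcription factors make up 68 of the genes compared. Of these 68 genes, 4 exceeded a correlation of 0.9 (5.88%), against 0.673% of all genes compared. The nearest genes of those lists were Cd37 at 0.96, ranked 18, Fcmr at 0.95, ranked 24, and Spib at 0.94, ranked 31. Others in those lists ran the opposite way, with Cd24a at -0.75 and Tcf3 at -0.96, ranked 11717 of 11742. Cd24a was highest in knockout mouse 1 (6.95) and wild-type mouse 1 (6.62), and at 4.53 or less in the other mice. The mean level of the erythroid genes was also highest in these mice, at 5.66 and 5.88. The part of erythroid cells in the Cd24a level was not tested. All these correlations describe 6 arrays and carry no test.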

How the data were processed

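The scanner files deposited by the authors give a background-subtracted intensity for each spot, per the file headers. The headers name version 10.7.3.1 of Agilent Feature Extraction, and the submitters' processing notes name 9.1. The authors' deposited table holds log2 values of 279 probes, 0 of them probes of the 9 genes, and was not used for results. On each array, 141 to 283 spots marked non-uniform or as outliers were left out, spots of a probe were averaged, and log2 intensity was scaled to each array's 75th percentile. All 55681 non-control probes were kept. A RefSeq gene table named 26413 probes. The array design refers to mouse build mm9, so only promoter windows carry coordinates, those of GRCm38.p6.

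The comparison used limma 3.58.1 (lmFit and eBayes, R 4.3.3), with genotype as the only term and Benjamini-Hochberg adjustment over all probes. The replicates are separate mice. Counts used 1 probe per gene, that with the highest mean level, and apart means that the ranges of the genotypes do not overlap. Knockout arrays lay in row 2 and wild-type arrays in row 1 of 1 slide with 1 scan time, and genotype and row cannot be told apart. On simulated data the fit was tested with 200 changed probes in each of 10 draws.

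The 9 genes and all lists were chosen with earlier results of these data known. Named were the 9 genes, Bach2, up to 4 genes of a list with the smallest p and the 10 genes most like the average of the 9 genes. Syk, Blnk, Ebf1 and the genes given for their detection or rank were named outside that rule, after their values were seen. The 14 alternatives were other scalings, background corrections, filters and probe rules, the array column as a block and omission of mice. The mice tagged P6 in the labels are wild-type mouse 3 and knockout mouse 3, and the tag is not explained there. A gene withheld from this text is not reported here.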

Additional observations from a re-analysis of the deposited data

How the results depend on the processing

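With each of the 14 alternatives, 0 of the 9 genes passed an adjusted p of 0.05 (limma). Over all probes the number was 0 except 2 with normexp background correction of the median spot signal, both probes without a gene name here. Unadjusted p under 0.05 was found for 492 probes as reported, 1110 with median centring, 916 with quantile normalization, 1454 without both mice tagged P6, 310 after the filter on dim probes and 642 to 1106 with 1 mouse left out. Cr2 was lower in knockout in all 14, at -1.51 to -1.06 in 8 settings and -1.56 to -0.91 with 1 mouse left out, with a smallest adjusted p of 0.47. Its unadjusted p (limma), 0.0763 as reported, was 0.0172 with quantile normalization, 0.0481 with normexp and 0.0368 after the filter on dim probes, with adjusted p of 1 or near it, and above 0.05 in the other settings. Fcer2a (0.29 to 1.51 with 1 mouse left out) and Ms4a1 (0.0001 to 0.93) kept their sign too. The relative Cr2 difference was -1.45 with normexp, -1.60 with quantile normalization and -1.92 to -1.19 with 1 mouse left out.

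Small differences changed sign. With 1 mouse left out, Cd79a ran from -1.12 to 1.44, Cd79b from -0.19 to 0.31, Cd22 from -0.51 to 0.15, Blk from -0.45 to 0.21, Bank1 from -0.48 to 0.19 and Pax5 from -1.16 to 0.94. Normexp gave -0.13 for Cd79a and -0.084 for Pax5, and the mean over probes gave -0.45 for Pax5. Leaving out both P6 mice gave 0.027 for Cd22 and 0.13 for Blk. Bank1 was 0.072 with median centring and 0.11 with quantile normalization. The causes were not tested. The median of all probes was 0.09 as reported, 0.24 with median centring, 0.00 with quantile normalization, -0.07 with normexp and 0.47 without the P6 mice, and ran from -0.31 to 0.35 with 1 mouse left out, so that differences of this size depend on the scaling and on the mice included. The labels give the genotypes no shared numbers beyond the tag P6, so the main fit held no pairing. Mice 1, 2 and 3 of each genotype lay in array columns 1, 2 and 3. The array column as a block therefore groups the mice by the numbers used here, and it left every call of the 9 genes as it was. Normexp on the mean spot signal was not run, since the files used hold the median signal, and the authors' deposited table lists no probe of the 9 genes.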
